A study of Mus musculus with 8 samples.

Results

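Mitochondria carry their own ribosome, and the nuclear genes for its proteins were compared in livers with and without Hmgb1. The genes were taken as all probe sets assigned to a single symbol that begins with Mrpl (large subunit) or Mrps (small subunit) and a number, with the brightest probe set kept for each gene. This gave 77 genes of 19939 measured, 48 of the large and 29 of the small subunit by symbol. RefSeq holds 78 protein-coding genes of this form. The remaining gene, Mrpl53, lay on a probe set shared with its neighbour Ccdc142 and is described apart.

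Affymetrix Mouse Gene 1.0 ST arrays had been hybridised with liver RNA of 8 samples. In 4 of them Albumin-Cre, whose promoter is active in hepatocytes and in the precursors they share with bile duct cells, had removed Hmgb1 from floxed alleles. The other 4 came from mice with floxed Hmgb1 alleles, whose titles name no Cre, so effects of Cre itself and of Hmgb1 loss cannot be told apart. All were male littermates aged 8 weeks. The protocol gives whole liver and a backcross to C57Bl/6, whereas other labels give stellate cells and Balb/c. No batch is labelled, and separate animals are not stated for each array, so the spread behind each p-value is that between arrays and may be technical.

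The medians of the 8 arrays spanned 6.45 to 6.59 (log2 intensity). Hmgb1 had 4.20 to 4.91 on deleted and 5.35 to 5.78 on floxed control arrays, and the resulting log2 fold change, −0.91 (SE 0.14), passed the threshold of an adjusted p under 0.05 (limma adjusted p = 0.0216). Its probe set was dim, with the values of all 8 arrays below the median gene (6.53). Albumin had 13.26 to 14.03 on deleted and 13.95 to 14.01 on control arrays, with the lowest value on deleted 4. The highest value of any probe set was 13.58 on deleted 4, against 14.23 to 14.46 on the other 7 arrays. The part of this in the albumin value and in the values below was not tested. The mean log2 intensity of 7 stellate markers was 8.39 to 8.50 on deleted and 8.38 to 8.49 on control arrays, and all 7 lay above the median gene. The mean of 6 hepatocyte markers was 12.68 (deleted 4) to 13.12 on deleted and 13.06 (control 1) to 13.12 on control arrays. The arrays therefore held RNA of hepatocytes as well as of the stellate cells that some labels name. The mean of 4 Kupffer cell markers was 9.40 to 9.53 on deleted and 9.42 to 9.54 on control arrays. The mean of 4 sinusoidal endothelial markers was 9.32 to 9.40 on deleted and 9.62 to 9.81 on control arrays, and that of 4 cholangiocyte markers 6.02 to 6.27 on deleted and 6.30 to 6.38 on control arrays. For both of these lists the groups did not overlap, and 1 endothelial marker, Clec4g, passed (log2 fold change −0.615, limma adjusted p = 0.00629). All 4 endothelial markers lay above the median gene, but only 1 of the 4 cholangiocyte markers did. The cholangiocyte log2 fold changes were −0.35 (Sox9), −0.19 (Epcam), −0.10 (Krt7) and 0.0025 (Krt19), and 0 of the 4 passed. The part of these shifts in the values below was not tested. In whole tissue, fewer cells of a type and less RNA per cell cannot be told apart. Floxed control 1 stood apart on the first principal component, at 26.6 against −11.7 to 11.4 for the other 7 arrays, and results that rest on it are given with and without it.

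The mitochondrial ribosome translates the few messages that mitochondrial DNA encodes, all of them for subunits of the respiratory chain and ATP synthase. Its ribosomal RNAs come from mitochondrial DNA, but every one of its proteins is made in the cytosol from a nuclear gene and imported. Some of the proteins have counterparts in bacterial ribosomes, and others exist only in mitochondria. The transcription factors NRF1 and the ETS protein GABP, the factor YY1 and the coactivators PGC-1alpha and PGC-1beta are known regulators of nuclear genes for mitochondria.

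The promoters of these genes share features that the choice by symbol did not use. RefSeq promoter windows of assembly GRCm38.p6, which run from 250 bases before to 50 bases after an annotated start, were found for 68 of the 77 genes (74 windows). Their median G and C content was 58.5% against 52.7% for all 32851 windows, and their median number of CG dinucleotides 21 against 7. Motifs of NRF1, ETS factors and YY1 were searched on both strands. The NRF1 motif (GCGCA, any 1 base, GCGC) was present in 17.6% of the members' windows and 4.6% of all windows, the ETS motif CCGGAAG in 33.8% and 8.86%, and the YY1 motif AAGATGGC in 16.2% and 2.75%. Any of these motifs was found in 56.8% of the members' windows against 14.7% of all. The large subunit (57.4%) and the small subunit (55.6%) had similar shares. A motif match describes the letters in a window and does not show binding, and base composition differed between the sets compared.

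The windows of 5 members described below are printed 5′ to 3′ from the RefSeq table, because they show the range from several motifs to none. Capitals mark motif matches on either strand: YY1 and ETS in Mrps12, overlapping NRF1 matches and an ETS match in Mrps26, NRF1 in Mrpl12, YY1 in Mrpl36 and no match in Mrpl55.
Mrps12 (chr7:28741772-28742071, minus strand): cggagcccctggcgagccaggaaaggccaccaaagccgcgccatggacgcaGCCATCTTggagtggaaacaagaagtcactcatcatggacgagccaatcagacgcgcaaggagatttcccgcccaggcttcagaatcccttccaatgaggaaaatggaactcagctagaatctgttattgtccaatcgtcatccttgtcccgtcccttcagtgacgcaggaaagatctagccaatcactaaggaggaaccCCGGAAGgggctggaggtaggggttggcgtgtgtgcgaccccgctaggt
Mrps26 (chr2:130563507-130563806, plus strand): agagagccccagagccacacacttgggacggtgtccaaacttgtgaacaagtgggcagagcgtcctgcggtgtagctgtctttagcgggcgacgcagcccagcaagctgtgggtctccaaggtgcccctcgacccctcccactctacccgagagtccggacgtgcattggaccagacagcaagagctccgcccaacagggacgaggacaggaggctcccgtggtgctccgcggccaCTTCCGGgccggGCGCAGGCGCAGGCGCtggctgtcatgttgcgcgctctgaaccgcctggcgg
Mrpl12 (chr11:120484387-120484686, plus strand): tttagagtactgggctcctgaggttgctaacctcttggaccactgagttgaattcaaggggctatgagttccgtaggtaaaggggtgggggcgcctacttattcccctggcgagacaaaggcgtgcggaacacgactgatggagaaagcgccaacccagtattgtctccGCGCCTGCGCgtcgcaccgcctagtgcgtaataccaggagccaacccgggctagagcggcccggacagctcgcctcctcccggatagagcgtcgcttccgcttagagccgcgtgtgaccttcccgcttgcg
Mrpl36 (chr13:73330759-73331058, plus strand): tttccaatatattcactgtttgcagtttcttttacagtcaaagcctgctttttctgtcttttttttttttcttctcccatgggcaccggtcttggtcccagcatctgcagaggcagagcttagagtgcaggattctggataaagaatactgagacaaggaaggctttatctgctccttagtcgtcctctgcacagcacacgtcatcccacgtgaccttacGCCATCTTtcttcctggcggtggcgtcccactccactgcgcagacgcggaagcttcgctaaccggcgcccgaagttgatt
Mrpl55 (chr11:59202236-59202535, plus strand): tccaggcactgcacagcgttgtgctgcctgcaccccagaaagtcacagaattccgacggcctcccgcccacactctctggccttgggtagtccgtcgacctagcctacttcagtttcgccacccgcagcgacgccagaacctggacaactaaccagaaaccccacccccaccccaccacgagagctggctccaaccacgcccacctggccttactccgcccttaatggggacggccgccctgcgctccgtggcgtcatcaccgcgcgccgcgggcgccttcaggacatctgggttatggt

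Many of these genes start back to back with another gene. An annotated start of another gene lay on the opposite strand within 1000 bases upstream for 26 of the 68 members (38.2%), against 12.3% of all 27025 genes in the promoter table. Mrpl46 and Mrps11, which encode a large and a small subunit protein, start 42 bases apart and had log2 fold changes of 0.052 and 0.027. Mrps12 starts 147 bases from Sars2, the mitochondrial seryl-tRNA synthetase, and their log2 fold changes were 0.22 and −0.012. Mrpl43 starts 116 bases from Twnk, the helicase of mitochondrial DNA, with 0.15 for Mrpl43 and −0.047 for Twnk. The highest log2 fold change of a partner was that of Ppp1r10, which starts 756 bases from Mrps18b. It was 0.56 (SE 0.13, limma adjusted p = 0.0851), against 0.050 for Mrps18b. The lowest was −0.165 for Ndufb5, which starts 308 bases from Mrpl47, against 0.10 for Mrpl47. None of these genes passed the threshold. These partners were named after their values were seen.

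In the deleted livers 0 of the 77 genes passed the threshold of an adjusted p under 0.05 over all genes (limma), against 0.692% of all genes (138 of 19939, with 59 higher, or 0.296%, and 79 lower, or 0.396%). After quantile normalization again the calls over all genes were 153 higher and 111 lower. The smallest adjusted p of the members was 0.334. At an unadjusted p under 0.05 there were 5 members, all higher in the deleted livers, against 9.46% of all genes in either direction and 4.93% in that one. The groups did not overlap for 4 members, all of the large subunit and all higher in the deleted livers, against 5.57% of all genes in either direction, 3.27% higher and 2.3% lower. Both shares are near those of all genes. The differences were small throughout: log2 fold changes ran from −0.14 to 0.33, and the 95% interval lay within 1.5-fold in either direction for 75 members. The exceptions to 1.5-fold were Mrpl22 and Mrps26.

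The values of the 4 members without overlap were as follows. Mrpl54, a mitochondria-specific protein near the stalk that recruits translation factors, had log2 intensities of 8.64, 8.70, 8.62 and 8.60 on deleted arrays and 8.31, 8.47, 8.52 and 8.56 on control arrays. Every deleted array lay above every control array, by 0.040 at the closest pair. The log2 fold change was 0.175, with an SE of 0.068 (limma adjusted p = 0.404).

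Mrpl55, a large subunit protein, had 8.66, 8.58, 8.49 and 8.59 on deleted arrays and 8.45, 8.43, 8.46 and 8.40 on control arrays. The control arrays were close together and all below the deleted ones. The resulting difference was 0.145 on the log2 scale (SE 0.058, limma adjusted p = 0.437) with all 8 arrays and 0.15 without control 1. Mrpl19, a counterpart of a bacterial large subunit protein, had 8.16, 8.25, 8.15 and 8.20 on deleted arrays and 8.06, 8.00, 8.09 and 8.08 on control arrays. The difference of 0.13 on the log2 scale (SE 0.056, limma adjusted p = 0.475) was the same to that precision without control 1. For Mrpl55 and Mrpl19 control 1 was thus not the lowest array. Mrpl36, another protein with a bacterial counterpart, had 9.32, 9.36, 9.33 and 9.35 on deleted arrays and 9.02, 9.30, 9.27 and 9.27 on control arrays. The fold change of 0.125 on the log2 scale (SE 0.071) was 0.060 without control 1, whose value lay well below the other controls.

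**Figure D1:**
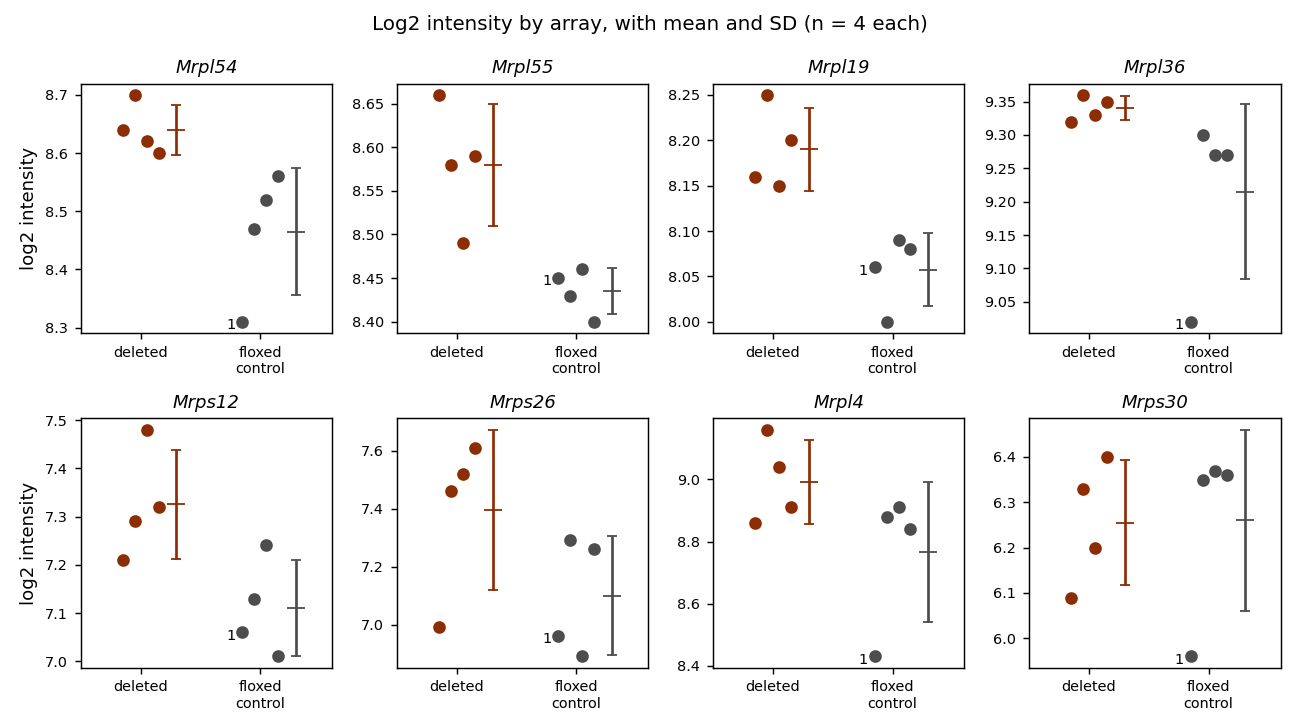
Log2 intensity of 8 genes on each array, with deleted arrays left and floxed control arrays right, and the mean and SD of each group (n = 4). A small digit marks floxed control 1. In the upper row the groups do not overlap, whereas in the lower row they do, and Mrps30 had equal means to within 0.0050.

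In the small subunit the groups overlapped for all 29 genes. Mrps12, a protein of the decoding centre with a bacterial counterpart, had 7.21, 7.29, 7.48 and 7.32 on deleted arrays and 7.06, 7.13, 7.24 and 7.01 on control arrays. Only control 3 reached above the lowest deleted array. Its log2 fold change of 0.22 (SE 0.076) had the smallest p of all members, 0.0169 before and 0.334 after limma's adjustment over all genes. Mrps26, a mitochondria-specific protein, had the highest log2 fold change of the small subunit, 0.295 (SE 0.14, limma adjusted p = 0.563). Its values were 6.99, 7.46, 7.52 and 7.61 on deleted arrays and 6.96, 7.29, 6.89 and 7.26 on control arrays. They overlapped through deleted 1, which lay among the controls, while the other deleted arrays lay above every control. The log2 fold change was 0.43 without deleted 1 (limma adjusted p = 0.140), 0.25 without control 1 and 0.22 without deleted 4.

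Mrps2 and Mrps16, counterparts of bacterial proteins, and Mrps27, a mitochondria-specific RNA-binding protein, followed by p. Mrps2 averaged 9.13 ± 0.13 on deleted and 8.99 ± 0.12 on control arrays (SD, n = 4 each). Mrps27 averaged 7.98 ± 0.10 on deleted and 7.85 ± 0.10 on control arrays, and Mrps16 9.02 ± 0.17 on deleted and 8.90 ± 0.017 on control arrays. Their log2 fold changes lay between 0.11 and 0.14 (limma adjusted p = 0.726 to 0.830), and without control 1 those of Mrps2 and Mrps27 were 0.081 and 0.084. Without deleted 3 that of Mrps2 was 0.080 and that of Mrps16 0.061, and without deleted 4 that of Mrps16 was 0.1875. The brightest small subunit probe set, that of Mrps18b, averaged 10.36 ± 0.037 on deleted and 10.31 ± 0.10 on control arrays (SD, n = 4 each). Its log2 fold change was 0.050, but 0.0050 without control 1 and 0.085 without control 3.

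Of the other large subunit genes, Mrpl14, a protein at the contact between the subunits, had 9.23, 9.41, 9.07 and 9.23 on deleted arrays and 8.92, 9.17, 9.04 and 9.05 on control arrays. The groups differed by 0.19 (SE 0.082, limma adjusted p = 0.492), with deleted 3 below control 2. Mrpl4, a counterpart of a bacterial protein, had 8.86, 9.16, 9.04 and 8.91 on deleted arrays and 8.43, 8.88, 8.91 and 8.84 on control arrays. The difference of 0.23 (SE 0.11, limma adjusted p = 0.594) became 0.12 without control 1, the array far below the others. Mrpl12, the stalk protein that contacts translation factors, averaged 10.15 ± 0.060 on deleted and 10.03 ± 0.046 on control arrays (SD, n = 4 each), a log2 difference of 0.11 (SE 0.059, limma adjusted p = 0.647). The brightest probe set, Mrpl39, a mitochondria-specific protein, averaged 10.41 ± 0.12 on deleted and 10.42 ± 0.14 on control arrays (SD, n = 4 each). The dimmest, Mrpl33, a counterpart of a bacterial protein, averaged 6.15 ± 0.075 on deleted and 6.22 ± 0.12 on control arrays (SD, n = 4 each). Neither bright nor dim end differed beyond its spread.

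The extremes of the range were named after their values were seen. Mrpl22, a protein that lines the exit tunnel, had 6.56, 6.90, 7.02 and 7.41 on deleted arrays and 6.26, 6.68, 6.62 and 7.02 on control arrays. The SDs within the groups, 0.35 on deleted and 0.31 on control arrays (n = 4 each), stood beside a difference of 0.33 (SE 0.18, limma adjusted p = 0.690), which was 0.199 without control 1. Mrpl23, an exit tunnel protein too, had the lowest log2 fold change, −0.14 (SE 0.098, limma adjusted p = 0.821), with 10.25, 10.31, 9.96 and 10.18 on deleted and 10.07, 10.41, 10.39 and 10.38 on control arrays. Deleted 3 and control 1 were its lowest arrays, and the value without control 1 was −0.22.

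**Figure D2:**
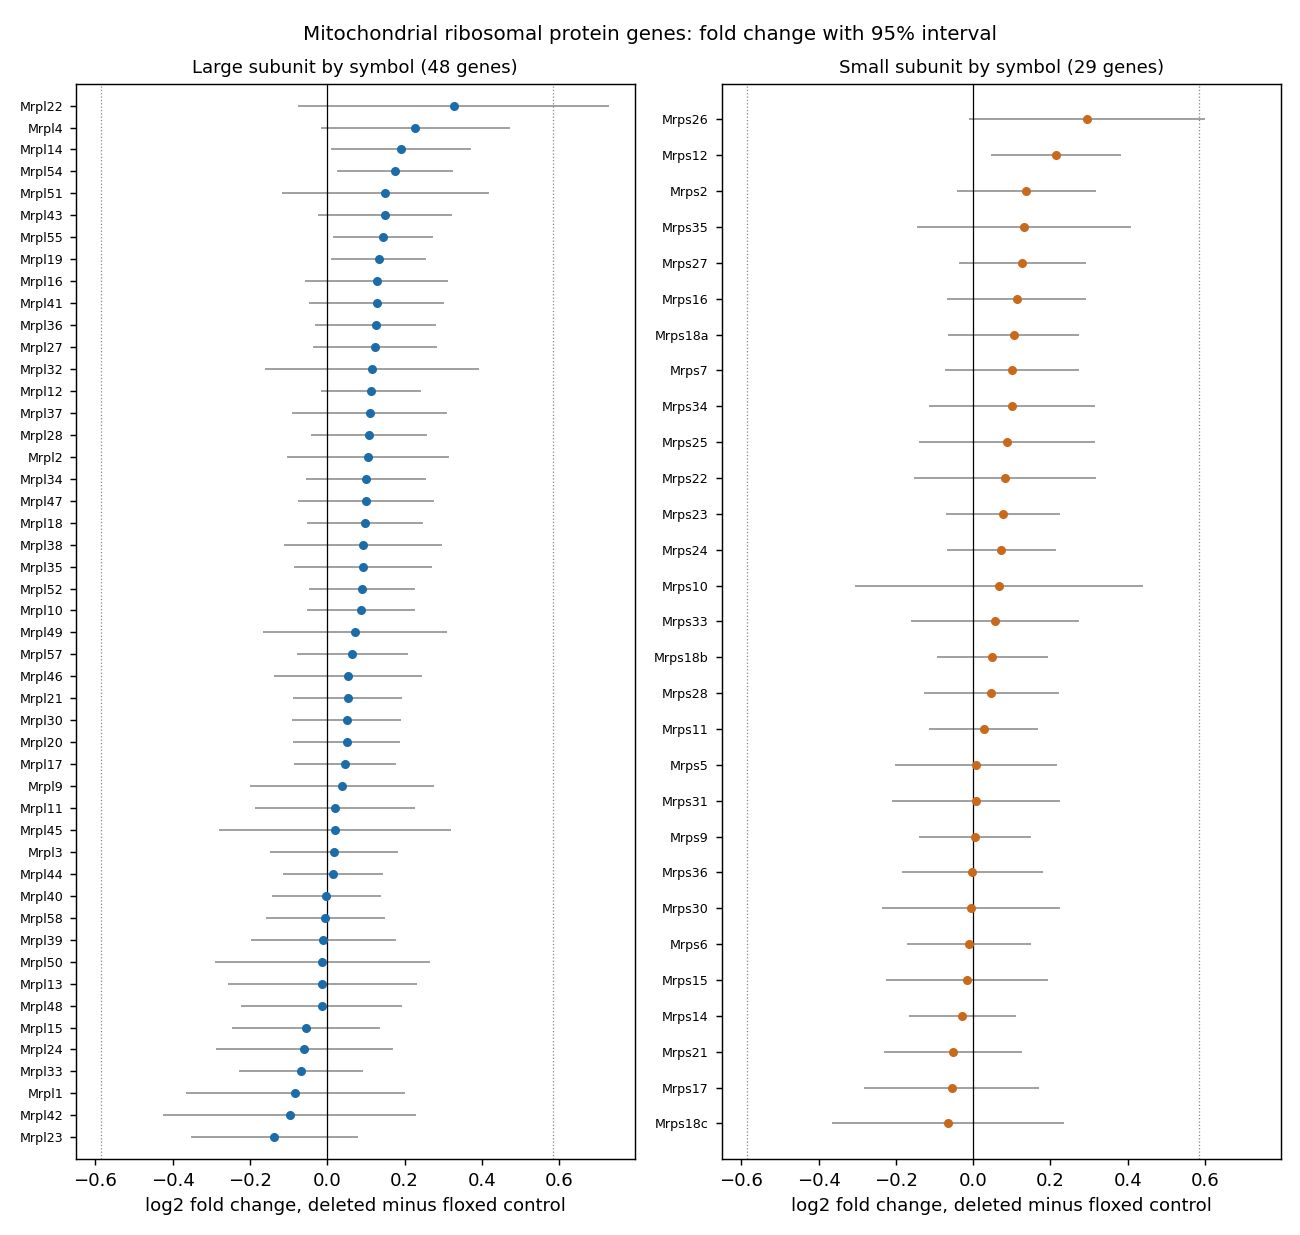
Log2 fold change (deleted minus floxed control) of each of the 48 large and 29 small subunit genes, with 95% interval from limma (4 arrays a group). The dotted lines mark 1.5-fold. Most points lie right of 0, from −0.14 to 0.33, and the intervals of 75 genes stay within the dotted lines.

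As a whole, 57 of the 77 genes had a positive log2 fold change, against 49.0% of all genes, and the median was 0.068 against 0 over all genes. The large subunit had 36 of 48 above 0 and a median of 0.080, and the small subunit 21 of 29 and a median of 0.058. These counts depended on floxed control 1. Without any other single array 52 to 71 members were above 0. Without control 1, 40 members were above 0 and 36 below, against 54.6% above 0 over all genes. The medians were then 0.022 for the large subunit (29 of 48 above 0), −0.025 for the small subunit (11 of 29 above 0) and 0.012 over all genes. With array weights, which give control 1 the lowest weight, the medians were 0.045 for the large and −0.0045 for the small subunit. Without control 1 again 0 members passed the threshold, against 1.61% of all genes, and 5 had an unadjusted p under 0.05, against 14.0% of all genes. The lowest log2 fold changes were then those of Mrpl42 (−0.24), Mrpl1 (−0.22) and Mrpl23 (−0.22), named after their values were seen.

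The position of control 1 was shared across the ribosome. It lay below the gene's own mean over the 8 arrays for 76 of the 77 members. It was the lowest of the 8 arrays for 62 members, 40 of 48 in the large and 22 of 29 in the small subunit, against 21.5% of all genes. The median deviation of the members from their own mean was −0.23 on control 1 and 0.026 to 0.031 on the other 3 controls, while that of all genes on control 1 was 0.015. Deleted arrays had median deviations of −0.019, 0.11, −0.011 and 0.056. Deleted 2 and 4 were therefore above all controls, and deleted 1 and 3 between control 1 and the rest.

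**Figure D3:**
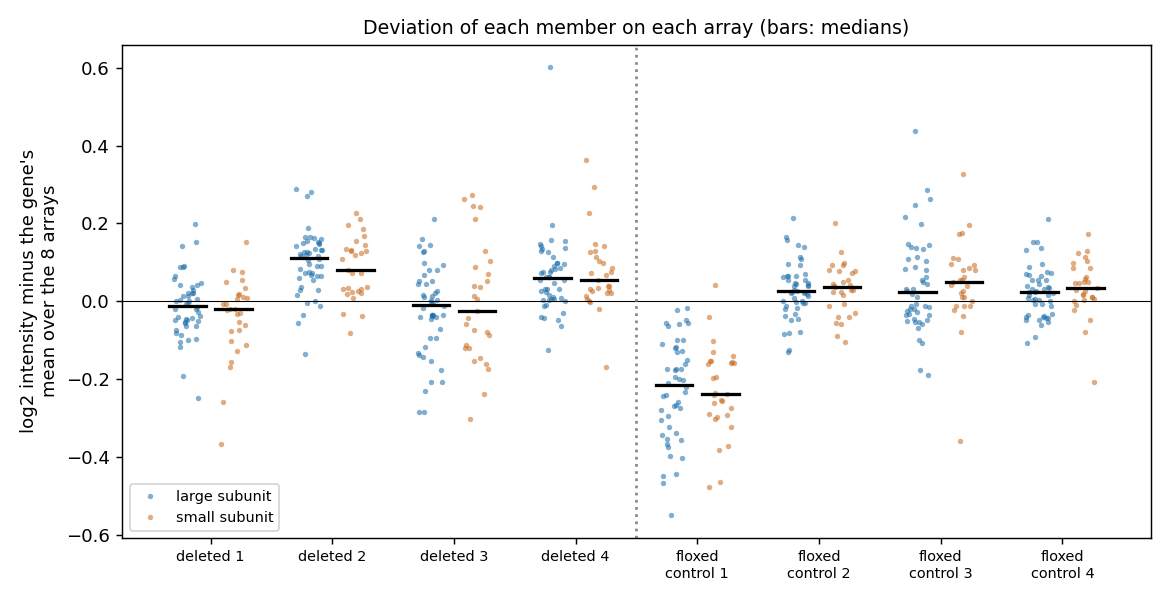
Log2 intensity of each member minus its mean over the 8 arrays, by array, with deleted arrays left of the dotted line and floxed controls right. Blue points are large and orange points small subunit genes, and bars are medians. The medians of both subunits lie at −0.21 and −0.24 on floxed control 1.

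**Figure D4:**
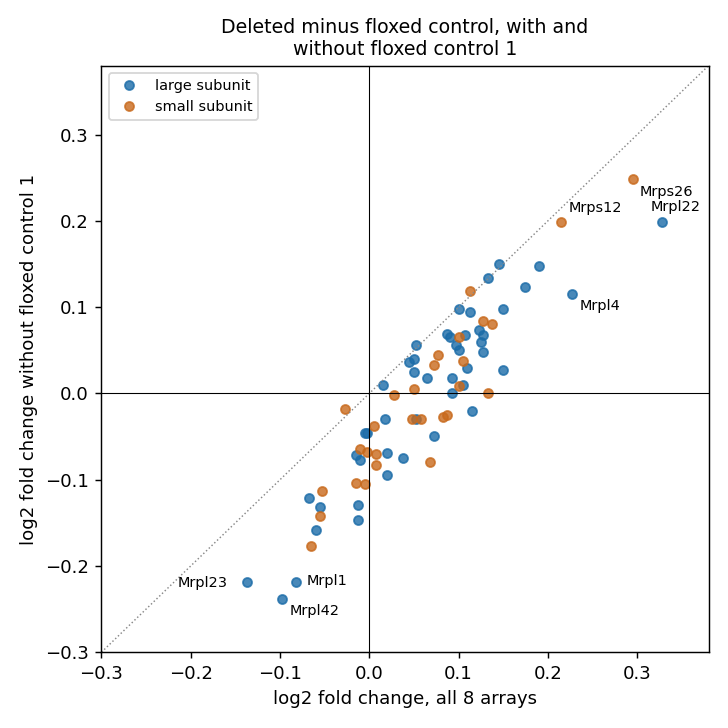
Log2 fold change of each member without floxed control 1 against that with all 8 arrays. The dotted line marks equal values. Nearly all points lie below it, and 17 genes above 0 with all arrays are not above 0 without control 1.

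The subunits were then set against each other. The mean log2 intensity of the large subunit genes was 8.60, 8.71, 8.59 and 8.67 on deleted arrays and 8.38, 8.64, 8.65 and 8.63 on control arrays. That of the small subunit genes was 8.12, 8.25, 8.16 and 8.24 on deleted arrays and 7.93, 8.19, 8.21 and 8.20 on control arrays. Both subunits were lowest on control 1 and highest on deleted 2. The large minus small difference within an array, whose size reflects probe brightness and not amounts, was 0.477, 0.463, 0.430 and 0.437 on deleted arrays and 0.449, 0.447, 0.444 and 0.437 on control arrays. It averaged 0.452 ± 0.022 on deleted and 0.444 ± 0.0051 on control arrays (SD, n = 4 each), so the group means differed by 0.0076, less than the spread of the deleted arrays. The difference between group means was 0.0091 without control 1, −0.00087 without deleted 1, 0.0148 without deleted 3 and 0.0022 with dim genes left out, so its sign is not settled. On control 1 both subunits were lower by about the same amount, and the large minus small difference there lay inside the range of the deleted arrays.

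Some symbols do not give the subunit known from structures of the mammalian mitochondrial ribosome. Mrps18a and Mrps30 encode large subunit proteins, and Mrps36 encodes a component of the oxoglutarate dehydrogenase complex. Mrps18a had 9.17, 9.17, 9.24 and 9.17 on deleted arrays and 8.88, 9.08, 9.23 and 9.14 on control arrays, a difference of 0.105 (SE 0.077, limma adjusted p = 0.835) that was 0.038 without control 1. Mrps30 had 6.09, 6.33, 6.20 and 6.40 on deleted arrays and 5.96, 6.35, 6.37 and 6.36 on control arrays. Mrps36 had 5.26, 5.48, 5.25 and 5.35 on deleted arrays and 5.14, 5.36, 5.40 and 5.45 on control arrays. The groups overlapped for both genes, with log2 fold changes of −0.0050 for Mrps30 and −0.0025 for Mrps36. Mrps30, Mrps36, Mrpl33, Mrps17 and Mrps25 were the 5 members dimmer than the median gene. With Mrps18a and Mrps30 moved and Mrps36 left out, the medians were 0.080 for 50 large and 0.063 for 26 small subunit genes, and the difference between subunits was 0.0040.

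The members were also grouped by evolutionary origin and by place in the ribosome. The 46 genes with bacterial counterparts had a median of 0.060 (34 above 0) and the 30 mitochondria-specific ones a median of 0.075 (23 above 0). Without control 1 these medians were 0.022 and 0.00042. The 4 measured genes of the stalk and GTPase centre (Mrpl10, Mrpl11, Mrpl12 and Mrpl54) were all above 0, with a median of 0.10, and 3 of 4 without control 1 (median 0.082). The 4 genes near the peptidyl transferase region (Mrpl2, Mrpl3, Mrpl16 and Mrpl27) had a median of 0.11, which was 0.029 without control 1. The 8 genes at the polypeptide exit had a median of 0.018 (5 above 0), the 6 of the central protuberance 0.025 (3 above 0) and the 7 of the decoding centre and mRNA path 0.068 (6 above 0). Without control 1 these last medians were −0.033, −0.038 and −0.0017. Members with an ETS match in their promoter (25) had a median of 0.082, against 0.050 for the 43 without. With an NRF1 match (13) it was 0.045 and without (55) 0.072, and with a YY1 match (12) 0.10 and without (56) 0.050. The medians by motif are those of all arrays, control 1 included, and were not computed without it.

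A further probe set was present for 8 members, and its log2 fold change had the same sign in all 8, between −0.14 and 0.13. The probe set shared by Ccdc142 and Mrpl53 had a log2 fold change of 0.025 (limma adjusted p = 0.979). RefSeq lists pseudogenes of Mrpl23, Mrpl27, Mrpl48 and Mrps36. Signal from such copies cannot be told apart from that of the gene for these 4 members. The locus that each probe set reads was not checked. Other members, among them Mrpl41, Mrpl51 and Mrps33, may thus also be read from a copy. For the members with a further probe set, the same sign may partly compare a gene with a copy.

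The ribosome needs further nuclear genes. Of all lists described here 0 genes passed in the comparison of the deposited values (limma, all 8 arrays, no weights or block), against 0.692% of all genes. Cars2, Ppargc1b, Cox7a1, Rpl5 and Rpl23 passed with another scaling or filter, with array weights or without control 1, as given for each gene. Of 4 measured ribosomal proteins with other symbols 3 were above 0. Gadd45gip1, a large subunit protein, had 9.56, 9.71, 9.58 and 9.55 on deleted and 9.31, 9.49, 9.42 and 9.42 on control arrays, with no overlap and a difference of 0.19 (SE 0.065, limma adjusted p = 0.307). Chchd1 and Dap3, both of the small subunit, had log2 fold changes of 0.17 and 0.080. Without control 1 that of Chchd1 was 0.021, and that of Dap3 was 0.044 without deleted 2 and 0.043 without control 2. Of 14 translation factors 10 were above 0 (median 0.020, −0.034 without control 1), 14 of 14 were lowest on control 1, and 2 had an unadjusted p under 0.05, both higher, against 4.93% of all genes in that direction. Taco1, a translational activator of cytochrome oxidase, had 8.14, 8.44, 8.50 and 8.44 on deleted and 7.62, 8.01, 8.10 and 8.15 on control arrays. This was a log2 difference of 0.41 (SE 0.12, limma adjusted p = 0.209), and 0.29 without control 1. Tsfm, an elongation factor, had 0.205 (SE 0.064) without overlap, and the initiation factor Mtif2 had 0.175 (SE 0.10), but 0.080 without control 1 and 0.115 without deleted 2.

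Mitochondrial tRNA synthetases and related enzymes were above 0 for 18 of 21 (median 0.088, and 0.022 with 13 above 0 without control 1), with 5 at an unadjusted p under 0.05, all higher, against 4.93% of all genes in that direction. Cars2, which charges the cysteine tRNA, had 8.01, 7.88, 7.96 and 8.07 on deleted and 7.58, 7.74, 7.61 and 7.70 on control arrays. The groups were well apart, and its log2 fold change of 0.32 (SE 0.066) had a limma adjusted p of 0.0619. It passed after quantile normalization again (0.33, limma adjusted p = 0.0335) and with array weights (0.28, limma adjusted p = 0.0300), and was 0.30 without control 1 (limma adjusted p = 0.0587). Qrsl1, a subunit of the glutamyl-tRNA amidotransferase, had 0.205 (SE 0.065) and Ears2, the glutamyl-tRNA synthetase, 0.195 (SE 0.070). Genes of assembly and rRNA modification were above 0 for 17 of 29 (median 0.025, −0.010 without control 1), with the GTPase Mtg1 at 0.27 (SE 0.082), the small subunit maturation factor Rbfa at 0.21 (SE 0.085) and the rRNA methyltransferase Tfb1m at 0.16 (SE 0.080). Rbfa had 0.14 without control 1, and Tfb1m 0.10 without deleted 2.

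Among 16 regulators of nuclear genes for mitochondria, 5 were above 0 and 11 below (median −0.042, −0.13 without control 1). Ppargc1b, which encodes PGC-1beta, had 7.13, 7.30, 7.33 and 7.10 on deleted and 7.50, 7.63, 7.62 and 7.52 on control arrays. All deleted arrays were lower, with a log2 difference of −0.35 (SE 0.072, limma adjusted p = 0.0619). It passed with dim genes left out (limma adjusted p = 0.0476), after quantile normalization again (0.0275), with array weights (0.0165) and without control 1 (0.0357), at log2 differences of −0.375 to −0.34. Ppargc1a, which encodes PGC-1alpha, had 7.37, 8.14, 7.70 and 7.79 on deleted and 9.14, 8.21, 8.27 and 8.65 on control arrays, a log2 difference of −0.82 (SE 0.21, limma adjusted p = 0.134) and −0.63 without control 1. Control 1 was its highest array, while it was the lowest for most ribosomal protein genes. Esrra, a nuclear receptor that works with both coactivators, had 7.67, 7.56, 7.55 and 7.52 on deleted and 7.32, 7.36, 7.39 and 7.42 on control arrays, a log2 difference of 0.20 (SE 0.059, limma adjusted p = 0.208).

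Related gene groups had medians below 0, though those of the respiratory complexes were no longer below 0 after quantile normalization again. The median over all genes was then 0.013. Proteins of the cytosolic ribosome (59 measured of 83, with 17 only on shared probe sets) had 54 below 0, a median log2 fold change of −0.12 and 21 genes at an unadjusted p under 0.05, all lower in the deleted livers, against 4.53% of all genes in that direction. The median was −0.15 without control 1 and −0.082 after quantile normalization again. The lowest p belonged to Rpl23 (−0.29, SE 0.069), Rpl5 (−0.255, SE 0.079) and Rpl10a (−0.195, SE 0.063). Rpl5 passed without control 1 (−0.32, limma adjusted p = 0.0371) and with array weights (−0.30, limma adjusted p = 0.0262), and Rpl23 with array weights (−0.30, limma adjusted p = 0.0304). Complex I subunits had 21 of 35 below 0 (median −0.040, −0.085 without control 1), and subunits of complexes III to V 33 of 42 (median −0.056, −0.083 without control 1), but after quantile normalization again these medians were 0.017 for complex I and 0.000078 for complexes III to V, against 0.013 over all genes. Ndufs4 (−0.195) of complex I and Cox7a1 (−0.35) and Atp5c1 (−0.19) were among the genes with the smallest p in these lists, and Uqcr10 had 0.23. Cox7a1 passed with array weights (−0.41, limma adjusted p = 0.0132). Control 1 was the lowest array for 8 of 35 complex I, 7 of 42 complex III to V and 8 of 59 cytosolic ribosomal protein genes, against 62 of 77 mitochondrial ones. On control 1 the median deviation from the genes' own means was −0.12 for complex I, −0.066 for complexes III to V and −0.018 for the cytosolic ribosome, against −0.23 for the mitochondrial ribosomal proteins. It was −0.22 for translation factors, −0.215 for tRNA synthetases and −0.11 for genes of assembly and rRNA modification. The regulators of nuclear genes for mitochondria (−0.24) and the ribosomal proteins with other symbols (−0.29) were as low as the members or lower. The difference between these groups was not tested.

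**Figure D5:**
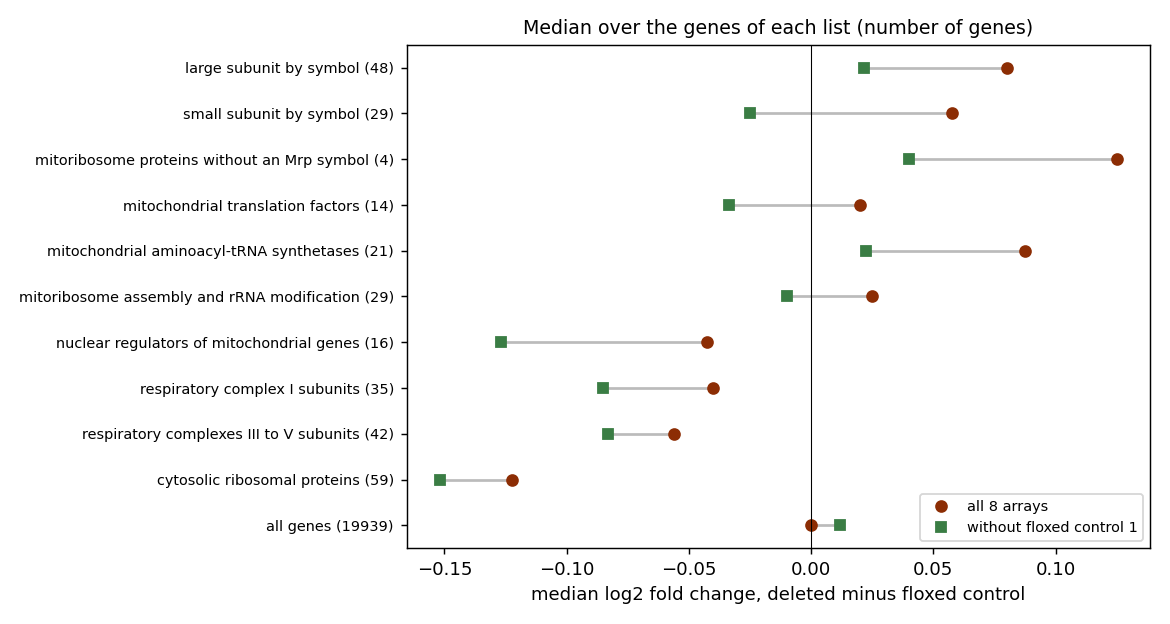
Median log2 fold change (deleted minus floxed control) over the genes of each list with all 8 arrays (circles) and without floxed control 1 (squares). The medians of the mitochondrial ribosome were 0.080 (large) and 0.058 (small) with all arrays and 0.022 and −0.025 without control 1. Those of complex I and of complexes III to V lay below 0 here. After quantile normalization again they were 0.017 and 0.000078, against 0.013 over all genes.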

How the data were processed

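Expression was read on 8 arrays, 4 per group, from 150 ng RNA each. The deposited values are log2 intensities per probe set, made by the authors with RMA (background correction, normalization between arrays, summary of probes), per the submitters' processing notes; genome build and software version, not given in the sources used here, remain unknown. The platform annotation gave 1 symbol to 21789 of 35556 probe sets, and the brightest was kept for each of 19939 genes. Groups were compared with limma 3.58.1 in R 4.3.3 (lmFit, eBayes, 2-sided, no covariate, no filter), with Benjamini-Hochberg adjustment over all genes and a threshold of 0.05. Medians and counts over lists have no test. Named genes were those past the threshold, the 6 of each subunit with the smallest p, those without overlap between groups, the brightest and dimmest, Mrps18a, Mrps30 and Mrps36, Hmgb1, and of each list those past the threshold or else the 3 with the smallest p. The members, lists and markers were chosen with earlier results of these data known. On simulated arrays with 19939 genes the fit recovered 83.6% of 67 genes changed 1.5-fold, 98.5% of 67 changed 2-fold and 100% of 66 changed 3-fold. The simulated noise was independent between genes and held no shift shared across an array, unlike floxed control 1. These shares therefore do not give the recovery on the real arrays. Precision is limited by the number of arrays. Tables and figures were made with Python 3.11.15, pandas 2.3.3 and matplotlib 3.10.9. The alternatives were other scalings, variance models, probe set rules and filters, a replicate block, and arrays left out.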

Additional observations from a re-analysis of the deposited data

Results flagged for a closer look

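Values were singled out where the lowest or highest of 4 arrays was isolated, with most of the group's range taken up by its gap to the nearest array. Over all 77 members this was found in 19 of 154 groups of 4 values, where chance gives about 1 in 20, or 7.7, for independent groups. Floxed control 1 held 13 of the 19, all low, deleted 3 held 3, deleted 2 held 2 and deleted 1 held 1. The members were low together on control 1, so the 19 are not independent and 7.7 is no test of them. The share over all genes was not computed. On floxed control 1 the mean of the large subunit genes was 8.38 against 8.63 to 8.65 on the other controls, and that of the small subunit genes 7.93 against 8.19 to 8.21. Among named members, Mrpl36 had 9.02 there against 9.27 to 9.30, Mrpl39 10.22 against 10.47 to 10.52, Mrpl4 8.43 against 8.84 to 8.91 and Mrps30 5.96 against 6.35 to 6.37. Uqcr10 had 9.64 there against 9.90 to 9.93.

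Mrps18a had 9.24 on deleted 3 against 9.17 on each other deleted array. On deleted 3 Ndufs4 had 10.66 against 10.89 to 10.92, Rpl23 10.90 against 11.10 to 11.12 and Tsfm 8.25 against 8.05 to 8.08. Taco1 had 8.14 on deleted 1 against 8.44 to 8.50, and Tfb1m 8.47 on control 2 against 8.66 on each other control. The cause of these values was not tested.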

How the results depend on the processing

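The count of members past the threshold was 0 in 17 of 18 alternatives. With the replicate number as a block it was 1, Mrpl22 (log2 fold change 0.33, SE 0.060, limma adjusted p = 0.0391), and among the list genes Taco1 (0.0187) and Ppargc1b (0.0254) passed with the block. The deviations of arrays of the same number had correlations of 0.45, 0.065, −0.081 and 0.42. The labels name no pairing, and whether the numbers pair the samples was not tested. The count over all genes was 138, and 325 with the block, 264 after quantile normalization again, 526 with array weights, 72 with arrays centred on their medians, 223 without control 1 and deleted 4 together, and 37 (without deleted 4) to 321 (without control 1) with 1 array left out. It was also 67 without deleted 2, 53 without deleted 3, 82 without control 2, 71 without control 3 and 42 without control 4. Without control 1 and deleted 4 together the subunit medians were 0.015 (large) and −0.033 (small). Named genes near 0 changed sign. Mrpl39, Mrps30 and Mrps36 had −0.077, −0.105 and −0.068 without control 1. Mrpl39 had 0.020 after quantile normalization again and 0.0067 to 0.047 without deleted 3, control 2, control 3 or control 4. Mrps30 had 0.020 after quantile normalization again and 0.013 to 0.050 without deleted 1, deleted 3, control 2, control 3 or control 4. Mrps36 had 0.011 after quantile normalization again, 0 with arrays centred and 0.0050 to 0.035 without the same 5 arrays. Chchd1 had −0.027 without control 1 and deleted 4. Hmgb1 was lower throughout but did not pass with every probe set in the fit (limma adjusted p = 0.0652) or without deleted 3, deleted 4, control 3 or control 4 (0.0561 to 0.0797). The cause was not tested. With 4 arrays a group, a 1.5-fold change lay outside the interval of all but 2 members, and smaller ones may go unseen.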
